A study of Homo sapiens with 4 samples.

Results

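The messages described here encode the core machinery that removes RNA in human cells: the RNA exosome, the CCR4-NOT and PAN2-PAN3 deadenylases, the decapping complex with the XRN exonucleases, and the factors of nonsense-mediated decay. They were chosen by gene symbol (EXOSC, CNOT, UPF, SMG, DCP1 or DCP2, XRN1 or XRN2, EDC3 or EDC4, PAN2 or PAN3) among protein-coding genes, which gave 40 genes of 61543 in the count table, 19655 of them protein-coding. The rule itself uses only symbol and gene type, but it was set with earlier results of these data known. The 40 genes comprise 10 of the exosome, 11 of CCR4-NOT, 2 of PAN2-PAN3, 7 of decapping and XRN, and 10 of nonsense-mediated decay. A further 21 loci carry such a symbol as pseudogenes, antisense or other non-coding genes and were left out.

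RNA was sequenced from the medium of cultured HEK293T cells, a line derived from human embryonic kidney, after the cells were removed by spinning and a 0.45 µm filter. One group released EPN24-Cas13d, a protein that assembles into secreted nanocages and carries Cas13d, an RNA-guided CRISPR enzyme that binds RNA. The other group released EPN24 nanocages without Cas13d, and each group has 2 libraries of total RNA. The approach, named POND-seq in the study's own description, asks which RNAs leave the cell with the fused binding protein. The labels give no guide RNA, no dose and no time, and they do not say whether the 2 libraries of a group came from separate cultures, so all p-values rest on a spread between libraries that may be technical only. Because the medium is a bulk sample, fewer cells releasing RNA and less RNA released per cell cannot be told apart.

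Messenger RNAs usually lose their poly(A) tail first. PAN2-PAN3 and CCR4-NOT shorten the tail, after which the body is either eaten from its tail end by the exosome or stripped of its cap by DCP2 and degraded from the other end by XRN1. Nonsense-mediated decay is a surveillance route in which the helicase UPF1 marks messages with a premature stop codon and hands them to the same enzymes.

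Gene counts totalled 4863449 to 5097332 per EPN24-Cas13d library and 1830860 to 1903492 per EPN24 library. For each count on the ERCC spike-in RNAs, added in equal amount to every sample before extraction, there were 58.1 ± 1.68 gene counts in EPN24-Cas13d and 3.95 ± 0.231 in EPN24 (SD, n = 2 in each). Values are therefore given on both scales. The TMM scale is in CPM (counts per 1000000 after the library total is multiplied by a TMM factor). It compares a gene with a trimmed mean over the genes. The ERCC scale compares a gene's amount per volume of medium. TMM factors were 0.820 and 0.821 in EPN24-Cas13d and 1.29 and 1.15 in EPN24, so TMM values are not shares of the counts. Shares are compared by the alternative with total counts as the scale. Over all tested genes the log2 fold change had a median of -0.96 on the first scale and of 2.38 on the second. Neither scale thus has its 0 at the median gene, and a gene slightly below 0 in TMM lies above that median. The 6 HEK293T markers checked (LIN28B, PAX2, NEFM, VIM, KRT8 and KRT18) had counts in every library. Of 8 markers of liver, blood and pancreas, HBA1 and INS were at 0 throughout, and the 8 together took 2.75 and 4.93 CPM (without TMM factors) in EPN24-Cas13d against 29.5 and 31.0 in EPN24, with no single count above 20. Olfactory receptor genes, 370 genes that this line should not express, had 0.158 ± 0.0246 counts per kb in EPN24-Cas13d and 1.63 ± 0.291 in EPN24 (SD, n = 2). The part of such low-level signal in the differences below was not tested beyond subtracting the olfactory receptor density, whose outcome is given beside the counts.

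The summed decay messages took a larger share of the RNA in EPN24-Cas13d medium, but a few genes carried the sum, and single members differed in both directions. The 40 genes held 0.466% and 0.454% of gene counts with Cas13d, and 0.162% and 0.149% without it. The 5 most counted members (SMG5, UPF1, EDC3, CNOT1 and EDC4) made up 66.5% and 66.6% of these counts in the EPN24-Cas13d libraries. With total counts as the scale, the median member was at -0.29 on the log2 scale. Per 1000 ERCC counts they summed to 265 and 269 counts against 6.67 and 5.63. On the TMM scale, 19 members were higher and 14 lower with Cas13d at an adjusted p of at most 0.05 (edgeR's quasi-likelihood test, Benjamini-Hochberg over 20476 genes), and 7 did not pass. Of all tested genes, 32.6% were higher and 48.2% lower, and of the protein-coding ones 37% and 42.9%. The members' median log2 fold change was 0.29, against -0.96 over all tested genes and -0.40 over the protein-coding ones, and its sign turned to -0.29 with total counts and under a filter of 10 counts and 10 CPM, -0.12 with counts halved and -0.14 with the olfactory receptor density subtracted. On the ERCC scale the same test called 32 members higher and 0 lower, with 8 not passing, and a median of 3.64. At an unadjusted p of 0.05, edgeR likewise had 0 members lower on that scale. There the background was 58.4% higher and 2.33% lower over all tested genes, and 65.7% and 1.92% over the protein-coding ones.

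The direction of the lower members thus depends on the scale. All 19 members called higher on the TMM scale were also higher on the ERCC scale. Of the 14 called lower, 6 were higher and 8 did not pass on the ERCC scale, and all 7 that did not pass on the TMM scale were higher on the ERCC scale. Every one of the 33 calls on the TMM scale had the 2 groups' CPM apart with no overlap, which was the case for 36.8% of all tested genes in the higher and 54.3% in the lower direction. On the ERCC scale the 32 higher members did not overlap either, beside 65.9% of all tested genes in that direction and 13.6% in the other. All 40 members passed the filter on low counts, but 9 of the 14 lower ones (EXOSC9, CNOT4, CNOT6L, CNOT7, CNOT8, XRN1, UPF2, UPF3A and UPF3B) passed through the EPN24 libraries and would not have passed through the EPN24-Cas13d libraries alone, so they could hardly have been tested without being lower. The split of higher to lower members was 16 to 17 with total counts in place of TMM (background 27.1% and 54.5%), 14 to 18 under the stricter filter (40.7% and 41.7%), 24 to 8 with the GC trend removed (34.5% and 34.6%) and 14 to 14 with the olfactory receptor density subtracted (33.9% and 36.8%). In the 15 alternatives other than ERCC scaling, 14 of the 19 higher members (EXOSC4, EXOSC6, EXOSC10, CNOT1, CNOT3, CNOT9, EDC3, EDC4, XRN2, SMG5, SMG6, SMG9 and UPF1 among them) and 7 of the 14 lower members (EXOSC9, CNOT2, CNOT7, DCP1B, UPF2, UPF3A and UPF3B) kept their call in every one. The fold changes of these 7 still shrank with the GC trend removed, in 6 of them by over 1.5 times: EXOSC9 to -2.50, CNOT2 to -1.23, CNOT7 to -1.71, UPF2 to -1.21, UPF3A to -1.31 and UPF3B to -1.76.

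**Figure D1:**
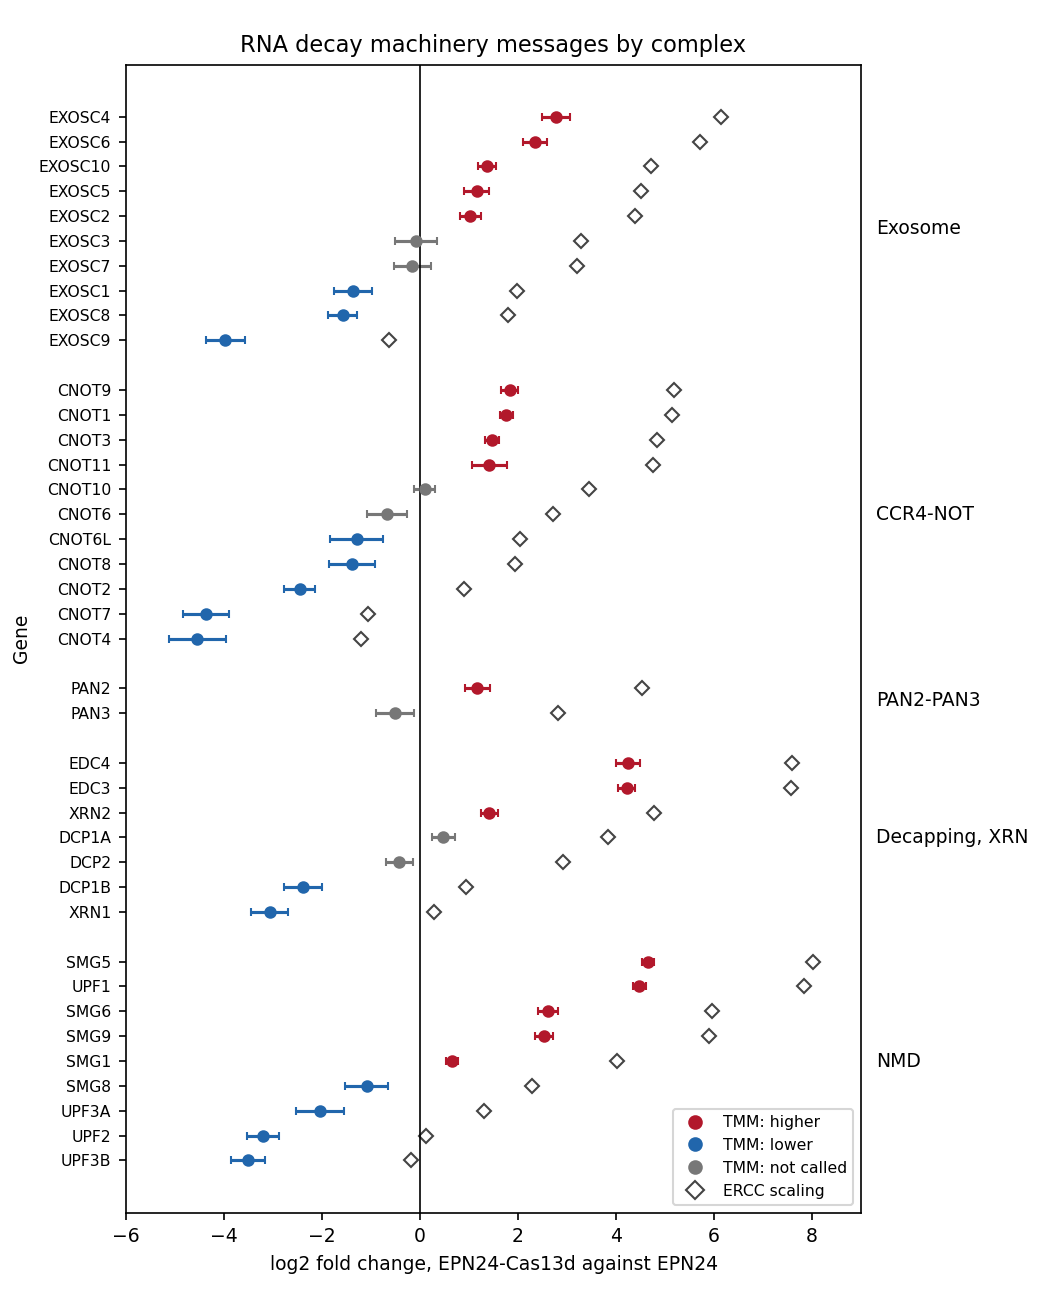
Log2 fold change of EPN24-Cas13d against EPN24 for 39 of the 40 decay genes, one row per gene, grouped by complex. Filled points show the TMM scale with the approximate standard error and are coloured by call, and open diamonds show the ERCC scale. The filled points run from -4.54 (CNOT4) to 4.66 (SMG5), and each complex spans both sides of 0 on the TMM scale.

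Several members far from 0 differ in base composition, and printed stretches of their messages show how. The stretches below are 150 bases from the middle of the coding sequence of 3 members far above 0 (SMG5, UPF1, EDC4) and 3 far below it (UPF2, XRN1, UPF3B), chosen after their values were seen. The 3 lowest members, CNOT4, CNOT7 and EXOSC9, are not shown, and their whole coding sequences hold 47.7%, 40.6% and 42.5% G and C. They are shown as DNA, 5′ to 3′, on the coding strand, from the GENCODE release 29 transcripts of build GRCh38, with G and C in capitals and A and T in lower case.
SMG5: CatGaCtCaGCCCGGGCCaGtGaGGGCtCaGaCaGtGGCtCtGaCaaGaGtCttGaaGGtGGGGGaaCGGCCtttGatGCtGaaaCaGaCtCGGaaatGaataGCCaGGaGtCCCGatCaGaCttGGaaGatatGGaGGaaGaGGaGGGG
UPF1: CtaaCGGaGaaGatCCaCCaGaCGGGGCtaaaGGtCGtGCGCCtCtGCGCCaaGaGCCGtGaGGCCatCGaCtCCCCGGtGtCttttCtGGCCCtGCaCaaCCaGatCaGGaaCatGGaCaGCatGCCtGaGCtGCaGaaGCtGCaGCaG
EDC4: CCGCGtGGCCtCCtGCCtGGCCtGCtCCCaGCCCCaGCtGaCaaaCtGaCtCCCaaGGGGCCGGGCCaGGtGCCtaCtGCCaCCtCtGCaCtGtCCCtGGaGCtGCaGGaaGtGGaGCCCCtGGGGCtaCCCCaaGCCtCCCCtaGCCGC
UPF2: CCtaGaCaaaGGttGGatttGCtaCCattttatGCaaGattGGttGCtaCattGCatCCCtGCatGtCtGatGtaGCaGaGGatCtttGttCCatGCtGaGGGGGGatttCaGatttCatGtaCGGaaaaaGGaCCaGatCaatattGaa
XRN1: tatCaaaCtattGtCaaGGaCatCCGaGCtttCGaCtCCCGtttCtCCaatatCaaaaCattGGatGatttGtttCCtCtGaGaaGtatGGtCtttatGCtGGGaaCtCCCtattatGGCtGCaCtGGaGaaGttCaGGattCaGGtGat
UPF3B: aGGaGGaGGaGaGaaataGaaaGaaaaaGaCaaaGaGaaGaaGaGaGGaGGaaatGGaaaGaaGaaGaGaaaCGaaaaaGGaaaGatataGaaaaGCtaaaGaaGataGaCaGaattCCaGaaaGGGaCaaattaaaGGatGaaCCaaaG
They cover coding positions 1450 to 1599 of SMG5, 1621 to 1770 of UPF1, 2029 to 2178 of EDC4, 1834 to 1983 of UPF2, 2485 to 2634 of XRN1 and 652 to 801 of UPF3B, counted from 1 at the A of the start codon. G and C made up 55.3%, 60.0% and 70.0% of the first 3 stretches and 42.0%, 42.0% and 35.3% of the last 3. Over the whole coding sequences the contrast was smaller for EDC4 and UPF3B, with 55.5%, 60.3% and 59.5% for the first 3 and 41.2%, 39.9% and 42.0% for the last 3.

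The nonsense-mediated decay messages held both the most abundant members and some of those most strongly lower on the TMM scale. On the TMM scale, 6 of the 10 were higher and 4 lower, and their log2 fold changes had a median of 1.59. Of the protein-coding tested genes, 37% were higher and 42.9% lower on that scale. On the ERCC scale, 8 were higher, none lower and UPF2 and UPF3B did not pass, beside 65.7% of protein-coding genes higher and 1.92% lower. SMG5, an adaptor that binds phosphorylated UPF1 and recruits decay enzymes (ENSG00000198952.8, chromosome 1, 156249224 to 156282825, minus strand, GRCh38), measured 1408 and 1362 CPM with Cas13d and 54.4 and 55.4 without. Its libraries lay far apart between groups and close together within them, a 25.2-fold difference with a log2 fold change of 4.66 (SE 0.12, adjusted p = 1.27e-12, edgeR). UPF1, the central helicase of the pathway (ENSG00000005007.13, chromosome 19, 18831959 to 18868230, plus strand), measured 997 and 1021 CPM against 41.9 and 48.8, a log2 fold change of 4.48 (SE 0.13, adjusted p = 1.93e-12, edgeR). Per 1000 ERCC counts UPF1 was at 46.3 and 49.4 with Cas13d and at 0.211 and 0.205 without, 230 times as high by the fit on that scale. SMG6, the endonuclease that cuts targets near the stop codon, and SMG9, a partner of the SMG1 kinase, differed by 2.62 and 2.54 on the log2 scale.

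On the TMM scale UPF2, UPF3A, UPF3B and SMG8 lay on the other side of 0. UPF2, the bridge between UPF1 and UPF3 proteins (ENSG00000151461.20, chromosome 10, 11920022 to 12043170, minus strand), measured 5.29 and 3.52 CPM with Cas13d and 45.0 and 36.9 without. On the TMM scale it was 9.21 times lower, a log2 fold change of -3.20 (SE 0.33, adjusted p = 8.63e-07, edgeR). With the GC trend removed the log2 fold change was -1.21. Per 1000 ERCC counts UPF2 stood at 0.246 and 0.171 against 0.227 and 0.155. Those values overlap between groups and gave a log2 fold change of 0.13. UPF3B, which joins UPF2 to exon junction complexes (ENSG00000125351.13, chromosome X, 119805311 to 119852998, minus strand), measured 5.53 and 2.52 CPM against 49.5 and 43.6, a log2 fold change of -3.51 (SE 0.35) on the TMM scale and -0.18 on the ERCC scale, where its groups also overlapped. The paralog UPF3A measured 2.88 and 3.52 CPM against 13.4 and 13.3, a log2 fold change of -2.04 (SE 0.49) that turned to 1.30 on the ERCC scale. SMG8, the other partner of SMG1, was at -1.09 on the TMM scale and 2.29 on the ERCC scale. The SMG8 call did not pass without EPN24-Cas13d replicate 1 (-1.10, adjusted p = 0.107), without EPN24-Cas13d replicate 2 (-0.95, adjusted p = 0.158) or without EPN24 replicate 2 (-0.69, adjusted p = 0.199), all edgeR. SMG1, the kinase that phosphorylates UPF1, had a log2 fold change of 0.65 that fell to 0.085 with total counts and turned to -0.21 under the stricter filter and -0.070 after background subtraction, and its counts are uncertain because 7 SMG1 pseudogenes held counts equal to 45.4% to 60.4% of its own.

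**Figure D2:**
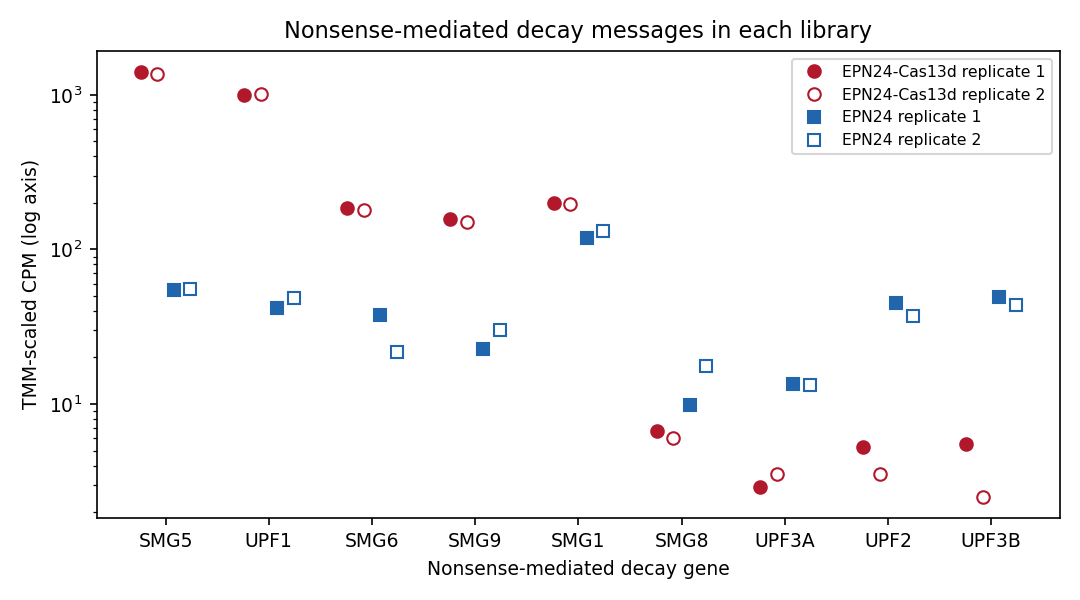
TMM-scaled CPM (log axis) of 9 of the 10 nonsense-mediated decay genes in each of the 4 libraries, with EPN24-Cas13d as circles and EPN24 as squares. SMG5 lies at 1408 and 1362 CPM with Cas13d and at 54.4 and 55.4 without, while UPF2 lies at 5.29 and 3.52 with Cas13d and at 45.0 and 36.9 without.

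Among the decapping and XRN messages, the scaffolds were high and the cytoplasmic exonuclease low. On the TMM scale 3 of the 7 were higher, 2 lower and 2 did not pass, with a median of 0.48. Of the protein-coding tested genes, 37% were higher and 42.9% lower on that scale. On the ERCC scale 5 of the 7 were higher and none lower, beside 65.7% and 1.92% of protein-coding genes. EDC4, the scaffold that holds the decapping complex together (ENSG00000038358.15, chromosome 16, 67873052 to 67884499, plus strand), measured 351 and 380 CPM with Cas13d and 28.6 and 9.47 without, a log2 fold change of 4.25 (SE 0.25, adjusted p = 1.30e-09, edgeR). Its EPN24 libraries differed widely from each other, by far less than the gap between groups. EDC3, another decapping scaffold, measured 533 and 485 CPM against 33.9 and 20.4, a log2 fold change of 4.22 (SE 0.18, adjusted p = 3.47e-11, edgeR). XRN2, the nuclear exonuclease, measured 103.6 and 103.7 CPM against 41.9 and 35.5, a log2 fold change of 1.42 (SE 0.18). XRN1, the cytoplasmic enzyme (ENSG00000114127.11, chromosome 3, 142306607 to 142448062, minus strand), measured 4.33 and 2.77 CPM against 26.8 and 33.6. Its log2 fold change was -3.07 (SE 0.38, adjusted p = 5.69e-06, edgeR) on the TMM scale and 0.28 on the ERCC scale, where the groups overlapped at 0.201 and 0.134 against 0.135 and 0.141 per 1000 ERCC counts.

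DCP2, the decapping enzyme, measured 19.2 and 18.6 CPM with Cas13d and 28.6 and 22.3 without. That difference of -0.43 on the log2 scale did not pass (adjusted p = 0.170, edgeR), although it did without EPN24 replicate 2 (-0.67, adjusted p = 0.0373, edgeR), and it was 2.92 on the ERCC scale. Of the DCP2 activators, DCP1A measured 37.98 and 36.2 CPM against 26.8 and 26.5 and did not pass either, at 0.48 (SE 0.23, adjusted p = 0.0709, edgeR). DCP1B measured 3.85 and 5.03 CPM against 27.7 and 18.9, a log2 fold change of -2.39 (SE 0.40, adjusted p = 1.04e-04, edgeR) on the TMM scale and 0.95, not passing, on the ERCC scale. With the GC trend removed, XRN1 no longer passed (-0.63, adjusted p = 0.159, edgeR), DCP1A did (1.84, adjusted p = 4.41e-06, edgeR), and DCP2 turned to 2.02 and passed (adjusted p = 1.26e-05, edgeR). XRN2 was at 0.55 after background subtraction and 2.98 with the GC trend removed and passed in both.

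The exosome is a barrel of 6 ring subunits (EXOSC4 to EXOSC9) under a cap of 3 (EXOSC1 to EXOSC3), with EXOSC10 as a nuclear exonuclease attached to it. On the TMM scale 5 of these 10 messages were higher, 3 lower and 2 did not pass, at a median of 0.47. Of the protein-coding tested genes, 37% were higher and 42.9% lower on that scale. On the ERCC scale 9 messages were higher and EXOSC9 did not pass, beside 65.7% of protein-coding genes higher and 1.92% lower. EXOSC4 (ENSG00000178896.9) measured 79.8 and 78.0 CPM with Cas13d and 7.14 and 16.1 without, a log2 fold change of 2.77 (SE 0.28, adjusted p = 7.54e-07, edgeR). The other higher members were EXOSC6 at 2.35, EXOSC10 at 1.36, EXOSC5 at 1.15 and EXOSC2 at 1.03 on the log2 scale. EXOSC9 (ENSG00000123737.13) measured 3.61 and 1.51 CPM against 35.7 and 46.4. On the TMM scale it was 15.7 times lower (log2 fold change -3.97, SE 0.39, adjusted p = 5.22e-07, edgeR), with -0.62 on the ERCC scale (adjusted p = 0.276, edgeR). EXOSC8 and EXOSC1 were at -1.58 and -1.37 on the TMM scale and turned to 1.79 and 1.97 on the ERCC scale. EXOSC3 and EXOSC7 were at -0.083 and -0.16 and overlapped between groups in CPM. Ring subunits were thus found from the highest value of the complex to the lowest, and cap subunits from 1.03 to -1.37.

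Of the exosome members that passed on the TMM scale, 4 lost their call under at least 1 alternative other than ERCC scaling. EXOSC5 and EXOSC2 did not pass with total counts (0.58 and 0.46), under the stricter filter (0.29 and 0.17) or after background subtraction (0.43 and 0.47), and EXOSC5 turned to -0.11 with the GC trend removed. EXOSC1 did not pass without EPN24-Cas13d replicate 2 (-1.18, adjusted p = 0.059, edgeR), with the length trend removed (-0.83, adjusted p = 0.0558, edgeR) or with the GC trend removed (-0.52, adjusted p = 0.235, edgeR), and EXOSC8 did not pass with the GC trend removed (-0.39, adjusted p = 0.245, edgeR). EXOSC4 kept its call at 1.16 with the GC trend removed, and EXOSC10 at 0.50 and EXOSC6 at 1.49 under the stricter filter.

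CCR4-NOT messages were split on the TMM scale in shares near those of protein-coding genes. The scaffold was higher and most of the deadenylase subunits lower. Of those subunits only CNOT7 kept its call in every alternative other than ERCC scaling, on 4 and 5.5 counts with Cas13d. The lower ones, CNOT6L, CNOT7 and CNOT8, passed the filter only through the EPN24 libraries. They could hardly have been tested without being lower, so their calls support no direction. Of 11 members, 4 were higher (36.4%), 5 lower (45.5%) and 2 did not pass on the TMM scale, with a median of -0.67. Of the protein-coding tested genes, 37% were higher and 42.9% lower there. On the ERCC scale 8 members were higher (72.7%) and none lower, beside 65.7% and 1.92% of the protein-coding genes. Without EPN24-Cas13d replicate 2, 3 were lower, and with the GC trend removed 7 were higher and 3 lower. CNOT1, the scaffold on which the complex is built (ENSG00000125107.19, chromosome 16, 58519951 to 58629885, minus strand), measured 511 and 454 CPM with Cas13d and 123 and 162 without, a log2 fold change of 1.76 (SE 0.14, adjusted p = 3.39e-08, edgeR). CNOT9, the subunit that contacts adaptor proteins of the microRNA pathway, measured 132 and 124 CPM against 37.9 and 34.1, a log2 fold change of 1.83 (SE 0.17). CNOT3, part of the NOT module, was at 1.47, and CNOT11 at 1.41. CNOT11 did not pass without EPN24-Cas13d replicate 1 (0.87, adjusted p = 0.104, edgeR), under the stricter filter (0.55, adjusted p = 0.192, edgeR) or after background subtraction (0.69, adjusted p = 0.184, edgeR). CNOT1, CNOT9 and CNOT3 kept their call under the stricter filter at 0.90, 0.97 and 0.61. CNOT2, the partner of CNOT3 in that module, was at -2.46 on the TMM scale and 0.89, not passing, on the ERCC scale. CNOT4, a ubiquitin ligase bound to CNOT1 (ENSG00000080802.20, chromosome 7, 135361795 to 135510127, minus strand), had 0 and 13 counts with Cas13d and 92 and 75 without. Against a floor of 3 counts, its CPM was at least 53.1-fold lower in EPN24-Cas13d replicate 1, and the fit over all 4 libraries gave -4.54 (SE 0.59, adjusted p = 9.73e-06, edgeR) on the TMM scale and -1.21, not passing, on the ERCC scale, where the groups overlapped. CNOT4 had an adjusted p of 0.0564 in the DESeq2 Wald test.

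The 4 deadenylase subunits of CCR4-NOT ranged from not passing to strongly lower on the TMM scale. CNOT7 measured 0.962 and 1.51 CPM with Cas13d and 29.4 and 22.7 without, a log2 fold change of -4.36 (SE 0.47, adjusted p = 1.32e-06, edgeR) on the TMM scale and -1.05, not passing, on the ERCC scale. Its close relative CNOT8 measured 6.01 and 3.52 CPM against 12.5 and 12.8, a log2 fold change of -1.40 (SE 0.47) that turned to 1.95 on the ERCC scale. The CNOT8 call did not pass without EPN24-Cas13d replicate 2 (adjusted p = 0.152, edgeR), with no filter (adjusted p = 0.0908, edgeR), in the DESeq2 Wald test (adjusted p = 0.0742), with the length trend removed (adjusted p = 0.0927, edgeR) or with the GC trend removed (-0.011, adjusted p = 0.984, edgeR). CNOT6L measured 4.33 and 3.27 CPM against 10.3 and 8.52, a log2 fold change of -1.30 (SE 0.53) that turned to 2.04 on the ERCC scale. It kept its call in 5 of 14 other alternatives and turned to 1.28 with the GC trend removed (adjusted p = 0.045, edgeR). The EPN24 counts per kb of CNOT6L were only 1.35 times those of the olfactory receptor genes. CNOT6, of the same enzyme class, measured 19.7 and 15.1 CPM against 13.8 and 42.1, and the 2 EPN24 libraries lay on either side of the EPN24-Cas13d libraries. Its log2 fold change of -0.67 did not pass (adjusted p = 0.133, edgeR). The value moved to -1.41 without EPN24 replicate 1 and turned to 0.26 without EPN24 replicate 2 and to 2.72 on the ERCC scale. With the GC trend removed CNOT6 turned to 1.52 and passed (adjusted p = 0.00308, edgeR). CNOT10, which pairs with CNOT11, was at 0.093 with overlapping groups.

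The other deadenylase, PAN2-PAN3, showed smaller differences. PAN2, the catalytic subunit, measured 38.9 and 34.7 CPM with Cas13d and 15.2 and 17.5 without, a log2 fold change of 1.17 (SE 0.26, adjusted p = 0.00105, edgeR). It did not pass under the stricter filter (0.31) or after background subtraction (0.76). PAN3, the subunit that binds the poly(A)-binding protein, measured 12.5 and 9.56 CPM against 20.1 and 11.4, and its groups overlapped. Its log2 fold change was -0.51 (adjusted p = 0.226, edgeR), or -0.93 without EPN24 replicate 2 (adjusted p = 0.0267, edgeR), and 2.82 on the ERCC scale.

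Ratios between 2 partners inside a library do not depend on any scaling between libraries, and 8 pairs of paralogs or partners were compared in this way as the log2 ratio of counts per kb. The largest shift was in UPF1 to UPF2, at 7.01 and 7.63 with Cas13d and -0.65 and -0.14 without, a difference of 7.72. Next came XRN1 to XRN2, at -6.40 and -7.04 against -2.47 and -1.89, a difference of -4.54. CNOT7 to CNOT8 was at -4.12 and -2.77 against -0.23 and -0.65, a difference of -3.01. With Cas13d the message of 1 partner therefore outweighed the other by more than without it in each of these pairs. UPF2, XRN1, CNOT7 and CNOT8 passed the filter only through the EPN24 libraries, and CNOT7 had 4 and 5.5 counts with Cas13d. A GC trend need not cancel between partners, and ratios with it removed were not computed. With it removed, CNOT7 and CNOT8 had log2 fold changes of -1.71 and -0.011, and XRN1 and XRN2 of -0.63 and 2.98. DCP1A to DCP1B shifted by 2.86, PAN2 to PAN3 by 1.64 and UPF3A to UPF3B by 1.58, the last of which was 0.86 without EPN24-Cas13d replicate 2. In these 6 pairs the 4 values did not overlap between groups, and the exact two-sided permutation test gave p = 0.333, the smallest that 2 against 2 libraries allow, so no pair could pass. In CNOT6 to CNOT6L (0.83) and EDC3 to EDC4 (-0.19) the groups overlapped. Those 2 differences turned to -0.11 without EPN24 replicate 1 and to 0.24 without EPN24 replicate 2, and the first to -0.57 after background subtraction.

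**Figure D3:**
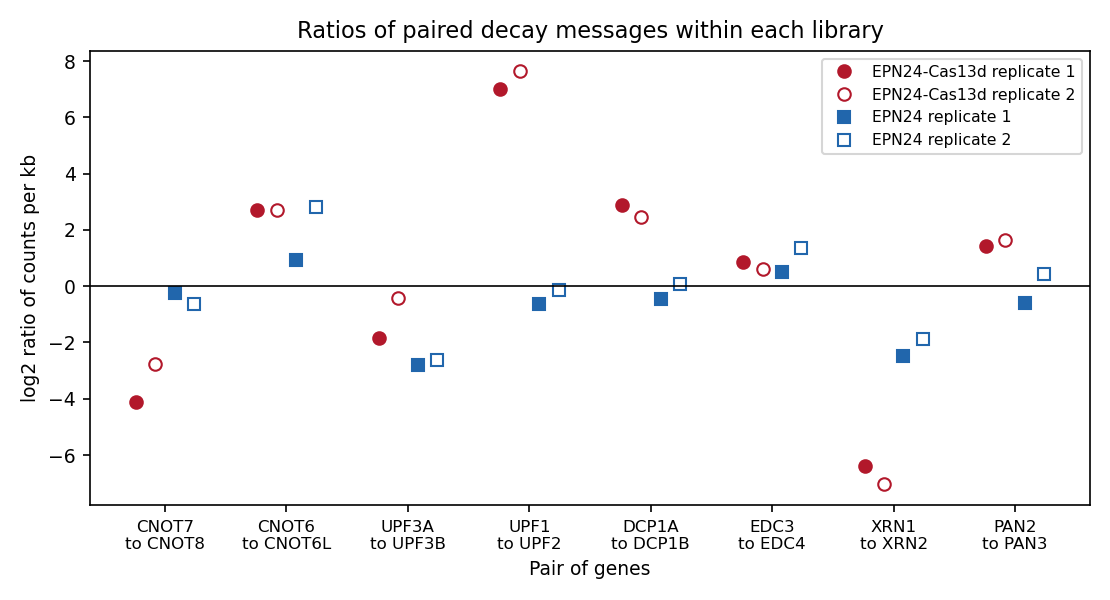
Log2 ratio of counts per kb of 8 pairs of decay messages within each library, with EPN24-Cas13d as circles and EPN24 as squares. UPF1 to UPF2 lies at 7.01 and 7.63 with Cas13d and just under 0 without, while the CNOT6 to CNOT6L and EDC3 to EDC4 ratios overlap between the groups.

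Levels of different genes can be compared only per length, here as TPM, the counts per kb of deposited exon length scaled to 1000000 per library. In EPN24-Cas13d the leading member was SMG5 at 738 ± 34.7 TPM, followed by UPF1 at 332 ± 2.18, EDC3 at 283 ± 25.4, EDC4 at 168 ± 5.51 and EXOSC4 at 161 ± 6.53 (SD, n = 2 for each). EDC4 and EXOSC4 changed places between the 2 libraries and cannot be ordered. In EPN24 the levels were low, from 0.779 ± 0.191 TPM for CNOT6L to 11.7 ± 2.41 for UPF3B. After UPF3B came CNOT1 at 9.997 ± 0.767, XRN2 at 8.83 ± 2.08 and SMG5 at 7.96 ± 0.830. Neighbours in this order from UPF3B to SMG5 did not differ beyond their spread. At the low end with Cas13d were CNOT7 at 0.302 ± 0.0700, CNOT4 at 0.649 ± 0.918 and XRN1 at 0.839 ± 0.279 TPM. SMG5 and UPF1 alone made up 42.1% and 42.9% of all decay-machinery counts in the EPN24-Cas13d libraries. The 2 most counted members of each EPN24 library, CNOT1 and SMG1, made up 18.3% and 21.9%. By complex, nonsense-mediated decay summed to 1357 and 1289 TPM with Cas13d and 51.2 and 43.9 without, and CCR4-NOT to 370 and 312 against 49.2 and 43.8.

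Base composition went with the fold change across the members. Over the 40 genes, the Spearman correlation of the TMM log2 fold change with the GC content of the coding sequence was 0.68, beside 0.47 over the 15183 tested genes with a coding sequence. For the GC content of the third codon positions it was 0.65 beside 0.43, and for exon length -0.056 beside 0.019. These are descriptions across genes that share the same 4 libraries, with no test. The coding GC content of the 19 higher members had a median of 53.6% and ran from 44.3% to 78.3%. The 14 lower members had a median of 43.7% and ran from 39.9% to 53.1%, so the ranges overlap. UPF3A, DCP1B and EXOSC1 were lower on the TMM scale with a coding GC content of 53.1%, 52.0% and 52.2%, whereas XRN2, SMG1 and CNOT1 were higher with 44.3%, 44.3% and 45.2%. The smooth GC trend removed from each library was that of the whole transcript, not of the coding sequence. The 2 can differ, as in EXOSC6 with 45.7% against 78.3%. With that trend removed, 5 of the 33 called members kept their direction but no longer passed. EXOSC5 (-0.11, not passing) and CNOT6L (1.28, passing) turned direction, and SMG5, UPF1, EDC3 and EDC4 kept their call.

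**Figure D4:**
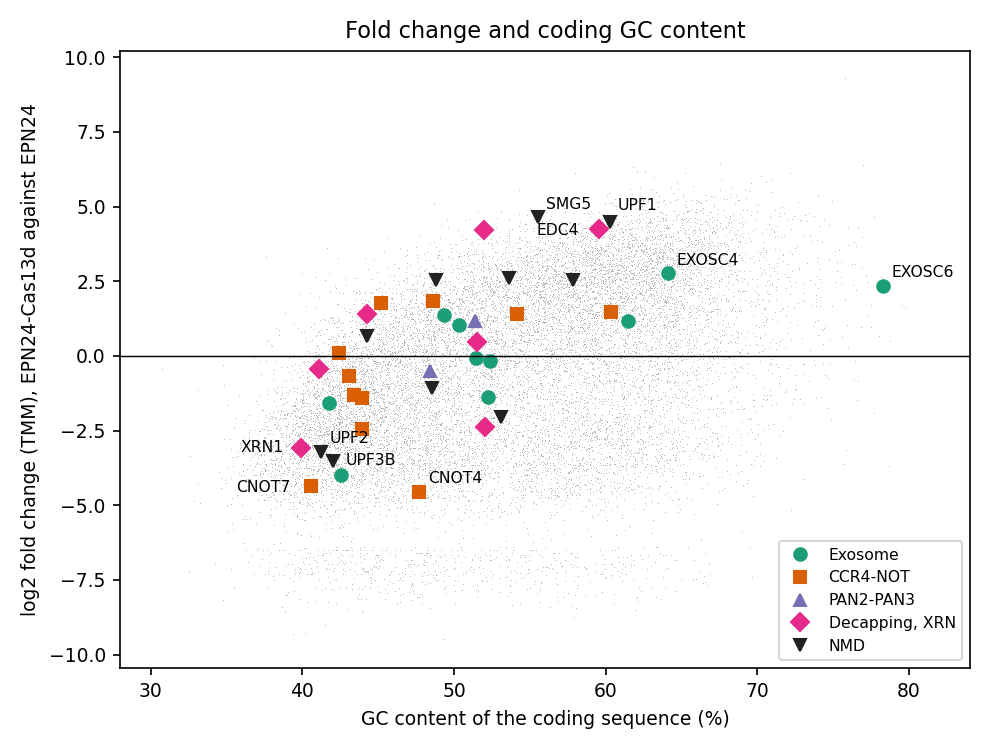
TMM log2 fold change against the GC content of the coding sequence (%), with the 40 decay genes as symbols by complex and the other tested genes as grey dots. EXOSC6 has the highest GC content of the members at 78.3% and a log2 fold change of 2.35, and XRN1 the lowest at 39.9% and -3.07.

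Other genes of RNA decay gave a split near that of all tested genes on the TMM scale, but not in several other settings. Of 68 further genes listed (deadenylation, decapping partners, partners of nonsense-mediated decay, exosome catalytic subunits and cofactors, and sequence-specific adaptors), 67 were tested, all but MPHOSPH6. On the TMM scale 22 were higher (32.8%), 32 lower (47.8%) and 13 did not pass, with a median of -0.22. All tested genes had 32.6% higher and 48.2% lower, and the protein-coding ones 37% and 42.9%. On the ERCC scale 47 were higher (70.1%, background 58.4%) and 0 lower (background 2.33%), also 0 at an unadjusted p of 0.05 (edgeR). The split was 47.8% to 23.9% with the GC trend removed (background 34.5% and 34.6%). Under the stricter filter it was 27.4% to 56.5% (background 40.7% and 41.7%). The highest called values were those of KHSRP, a protein that binds AU-rich elements, at 4.51, TNKS1BP1, a CCR4-NOT partner, at 3.82, TOB2, an antiproliferative protein that binds CCR4-NOT, at 3.62, DHX34, a helicase of nonsense-mediated decay, at 3.38, and CASC3, an exon junction protein, at 2.85. The lowest were MAGOHB at -4.87 and MAGOH at -4.36, both exon junction proteins, PNRC2, a decapping activator, at -4.44, ZFP36, which binds AU-rich elements, at -4.31, and LSM6, of the ring that binds message tails, at -4.10. None of these 5 passed on the ERCC scale, and all 5 entered the test only through the EPN24 libraries, so they could hardly have been called higher. MAGOHB, ZFP36 and LSM6 were not tested under the stricter filter, nor LSM6 after background subtraction. With the GC trend removed, MAGOHB did not pass (-2.52, adjusted p = 0.0502, edgeR), and PNRC2 and LSM6 were at -2.04 and -2.17. MAGOHB and ZFP36 had 0 counts in EPN24-Cas13d replicate 2 and were at least 11.0-fold and 13.8-fold lower there against the floor of 3 counts, ZFP36 did not pass without EPN24 replicate 1 (-3.59, adjusted p = 0.0630, edgeR), and LSM6 was not tested without EPN24 replicate 2. By group on the TMM scale, the partners of nonsense-mediated decay had 7 of 11 higher and 3 lower. Decapping partners had 3 of 16 higher and 9 lower, and adaptors 2 of 12 higher and 8 lower, with no gene of either group lower on the ERCC scale, and with the GC trend removed the adaptors had 6 higher and 4 lower. Of the lower genes, 6 of the 9 decapping partners and 4 of the 8 adaptors would not have passed the filter through the EPN24-Cas13d libraries, so these counts support no direction. Of the DIS3 family of exonucleases, the exosome-bound DIS3 and DIS3L were at -2.56 (0.79 and called higher on the ERCC scale) and 1.27, and DIS3L2, which acts without the exosome, was at 2.38.

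The authors' deposited table of their own DESeq2 comparison lists 30 of the 40 members as higher and none as lower at an adjusted p of 0.05, with a median log2 fold change of 3.60. Its values run from -1.25 (CNOT4) to 7.98 (SMG5). They lie near those of the ERCC scale, which had a median of 3.64 and ran from -1.21 to 8.02, and away from the TMM scale. In that authors' deposited table, 30.5% of the 39794 genes with an adjusted p are listed as higher and 0.201% as lower. That is a wider set than the 20476 genes tested here, so these shares cannot be set against the background above.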

How the data were processed

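Total RNA of HEK293T culture medium was sequenced in 2 EPN24-Cas13d and 2 EPN24 libraries, grouped by sample title. Per the labels' protocols, ERCC RNA was added to 200 µl of medium before extraction, and libraries took 17 PCR cycles and were read as 150-nt pairs. Tools in the submitters' processing notes are DESeq2 1.36.0, featureCounts 2.0.1, STAR 2.7.10a, Trim Galore 0.6.7 and FastQC 0.11.9, with GRCh38 as the build. An annotation release was not given in the sources used here, nor was a strand setting. Reads of antisense or overlapping genes can therefore not be told apart, and 4 members share over 20% of their exon bases with another gene (EXOSC10, SMG6, EXOSC4 and EDC4).

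The authors deposited expected counts per gene (with fractions, not normalized) and an exon length. They also deposited a DESeq2 table with a mean normalized count (signal), a log2 fold change, a test statistic (score) and p-values. Of 61640 rows, 5 broken ones were left out, leaving 61543 genes and 92 ERCC transcripts. Symbols came from the authors' table.

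After rounding, the counts were tested with edgeR 4.0.16 in R 4.3.3 (filterByExpr, TMM without ERCC rows, robust quasi-likelihood test, Benjamini-Hochberg adjustment, threshold 0.05). The procedure was also run on simulated data in which a small part of the genes was changed, equally up and down. In the real data most genes were called, so that run cannot test the TMM scale or the choice between scales. SE is the absolute log2 fold change over the square root of F, and ± values are SDs of 2 libraries. ERCC totals replaced library sizes for the ERCC scale. A floor of 3 counts corresponded to 0.721 and 0.755 CPM in EPN24-Cas13d and 1.34 and 1.42 in EPN24. It covers counting error only, since no molecular identifiers are named and both mates of a pair appear to be counted. GC content was taken from GENCODE release 29 transcripts, found for all 40 members and 97.3% of tested genes. The GC trend removed was fitted on the GC content of the whole transcript.

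Full values are given for the member with the highest and the lowest fold change and the highest TPM of each complex and for both members of the 8 pairs. The single values of 1 further member are not reported here. Of the further decay genes, the 5 highest and 5 lowest called are named. DIS3, DIS3L and DIS3L2 were named after their values were seen. Members and lists were chosen with earlier results of these data known. Alternatives were total counts, DESeq2 size factors, no filter, ERCC totals, a filter of 10 counts and 10 CPM in 2 libraries, the DESeq2 1.42.0 Wald test, limma-voom (limma 3.58.1), a replicate block, each library left out, length or GC trend removed, counts halved, and the olfactory receptor density subtracted.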

Additional observations from a re-analysis of the deposited data

How the results depend on the processing

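With DESeq2 size factors and limma-voom, the counts of higher and lower members and the members' median stayed near the values given. With ERCC totals, 11960 genes were higher and 477 lower in all. Of the members 32 were higher and 0 lower (exosome 9 and 0, CCR4-NOT 8 and 0, PAN2-PAN3 2 higher, decapping and XRN 5 and 0, nonsense-mediated decay 0 lower), with a median of 3.64, and of the further decay genes 47 and 0. The stricter filter gave 4889 lower genes in all (fewer genes were tested), 3 higher exosome members, 0 higher and 1 lower of PAN2-PAN3, and a median of -0.29. Background subtraction gave 5775 lower genes in all, 3 higher exosome members, 0 higher of PAN2-PAN3, and a median of -0.14. Total counts gave 3 higher exosome members, 1 lower of PAN2-PAN3 and a median of -0.29, and halved counts 1 lower of PAN2-PAN3 and -0.12. With the GC trend removed, 8 members were lower (exosome 1, CCR4-NOT 3, decapping and XRN 1), 7 of CCR4-NOT and 5 of decapping and XRN were higher, the median was 1.51 and 16 further decay genes were lower. CCR4-NOT had 3 lower members with no filter and with the length trend removed, and 2 with the DESeq2 Wald test. The median was 0.65 with no filter and 0.67 with the length trend removed. With 1 library left out, lower CCR4-NOT members ranged from 3 to 5 and lower PAN2-PAN3 members from 0 to 1. Where these shifts came from was not tested, except that a lone library in a group is assumed to vary like the other group.

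Signs turned for single genes as follows. With ERCC totals, EXOSC3 was at 3.29, EXOSC7 3.20, EXOSC1 1.97, EXOSC8 1.79, CNOT6 2.72, CNOT6L 2.04, CNOT8 1.95, CNOT2 0.89, PAN3 2.82, DCP2 2.92, DCP1B 0.95, XRN1 0.28, SMG8 2.29, UPF3A 1.30 and UPF2 0.13. With the GC trend removed, EXOSC5 was at -0.11, EXOSC3 1.62, EXOSC7 0.13, CNOT6 1.52, CNOT6L 1.28, PAN3 0.0076 and DCP2 2.02. With the length trend removed, EXOSC3 was at 0.36, EXOSC7 0.28 and DCP2 0.17, and with no filter EXOSC3 at 0.27 and EXOSC7 at 0.20. With total counts, CNOT10 was at -0.48 and DCP1A at -0.093. Under the stricter filter, CNOT10 was at -0.77, DCP1A -0.38 and SMG1 -0.21. After background subtraction, EXOSC3 was at 0.13, CNOT10 -0.73, DCP1A -0.21 and SMG1 -0.070, and the CNOT6 to CNOT6L ratio at -0.57. With counts halved CNOT10 was at -0.32. With 1 library left out, EXOSC3 ranged from -0.61 to 0.35, EXOSC7 from -0.37 to 0.14, CNOT10 from -0.16 to 0.18, CNOT6 from -1.41 to 0.26, the CNOT6 to CNOT6L ratio from -0.11 to 1.77 and the EDC3 to EDC4 ratio from -0.63 to 0.24. CNOT4 moved to -9.73 without EPN24-Cas13d replicate 2, a fitted value against a library at 0 and no bound.

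Same-numbered libraries had a correlation of -0.0041 across genes in their deviations from the group means, so they shared little deviation. With 2 libraries per group both pairs give the same value by construction. That 1 value cannot settle whether the replicate numbers pair the libraries. A replicate block left 19 members higher and 12 lower, with adjusted p = 0.0674 for CNOT6L and 0.06 for SMG8 (edgeR). With counts halved, 19 members were higher and 17 lower, and no call was lost. Other effects of depth on the calls were not tested.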
